A study of Mus musculus with 30 samples.

Results

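RNA of 2 kinds of multipotent progenitor from the bone marrow of old mice was compared: MPP4 T1 cells against MPP3 T1 cells, both from mice labelled WTiMOS at 24 months of age. The 6 libraries were chosen by their labels, as the 3 MPP4 T1 and the 3 MPP3 T1 libraries of that genotype and age, out of 30 libraries in the series. Cells had been sorted by flow cytometry, and the series design names the part that the transcription factor Bcl11a plays within MPP3 and within MPP4 as its question. Both groups carried the same genotype label, and no drug or other treatment is named for either. What the iMOS allele is, which cells are T1, which state of Bcl11a they carry, the promoter behind the system, and the strain and sex of the mice are not given in the labels. Nothing says whether replicates came from separate or pooled animals, so the p-values speak of the spread among these 6 libraries only, and that spread may be technical. The MPP4 and the MPP3 libraries were deposited in separate tables, so cell type and table cannot be told apart in any difference below.

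Multipotent progenitors arise from blood stem cells and feed the committed lineages. MPP3 is known as a subset biased to granulocytes and macrophages, and MPP4, marked by the receptor Flt3, as a subset biased to lymphocytes and dendritic cells. Such cells carry low levels of transcripts of the lineages they can enter, which is called lineage priming: enzymes of neutrophil granules on the myeloid side, and the DNA polymerase of antigen receptor rearrangement, Dntt, on the lymphoid side. Bcl11a is a zinc finger repressor needed for lymphocyte development and known for silencing fetal globin.

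Values were TPM (transcript abundance scaled by the authors for length and to a common total), so levels of different genes can be compared, but every library summed to 1e+06 and the read depth is unknown. Of 24421 genes listed, 11060 reached 1 TPM in at least 3 of the 6 libraries and were tested on the log2(TPM + 1) scale with limma, and a gene was called at a Benjamini and Hochberg adjusted p of 0.05 over all of them. Folds of genes with low TPM are understated on this scale. A gene that reached 1 TPM in 1 group only had to be the higher in that group, and such members are pointed out, since their direction was set by the filter. The first principal component held 68.7% of the variance and placed the MPP4 libraries at -28.2 to -24.5 and the MPP3 libraries at 21.6 to 30.3. The median SD of a gene between libraries was 0.127 log2 units in MPP4 and 0.147 in MPP3. Transcripts of 4 Y-linked genes summed to 0.0607 to 0.184 TPM in the MPP4 libraries and were listed at 0 in all MPP3 libraries, while Xist, the RNA of the inactive X chromosome, stood at 61.7 to 74.1 TPM in MPP4 and 60.8 to 74.3 TPM in MPP3. These were bulk libraries, in which fewer cells of a type and less RNA per cell cannot be told apart.

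The labels were checked against markers of each subset. Of 8 MPP4 markers, 7 were tested and 5 were higher in MPP4, namely Flt3, Dntt, Satb1, Notch1 and Ccr9, while 1, Il7r, was lower. The other tested one did not pass the test. Rag1, the recombinase, was too low to be tested, with 0.0761, 0.104 and 0.0642 TPM in MPP4 libraries and 0.871, 1.31 and 1.43 TPM in MPP3 libraries, so its values lay on the side opposite to its name as an MPP4 marker. Of 8 MPP3 markers, all tested, 6 were lower in MPP4 (Mpo, Ctsg, Elane, Fcgr3, Cebpa and Ms4a3), 0 were higher, and Cd48 and Csf1r did not pass the test. Cd48 was also listed as a marker common to both gates.

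Genes of granules, mast cells and early B cells were among those of largest log2 difference between MPP4 and MPP3 T1 cells, and were lower in MPP4. Flt3, Dntt, 8 MHC class II genes and 23 cell cycle genes were higher. In all, 2734 genes were called, 24.7% of those tested. Of these, 1612 genes (14.6%) were higher in MPP4 and 1122 (10.1%) were lower. Counts of list members below are to be read beside these shares. Large differences leaned the other way: 446 genes (4.03%) were called at 2-fold or more, of which 152 (1.37%) were higher and 294 (2.66%) lower. Over all genes tested, 210 reached 1 TPM in 1 group only, so the filter set their direction. How many of them are among the 446 was not counted. The libraries of the groups did not overlap for 4562 genes, 41.2% of those tested. The median log2 difference of all genes tested was 0.02. Without MPP3 replicate 3 the count of calls was 1725, with 1081 higher and 644 lower.

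**Figure D1:**
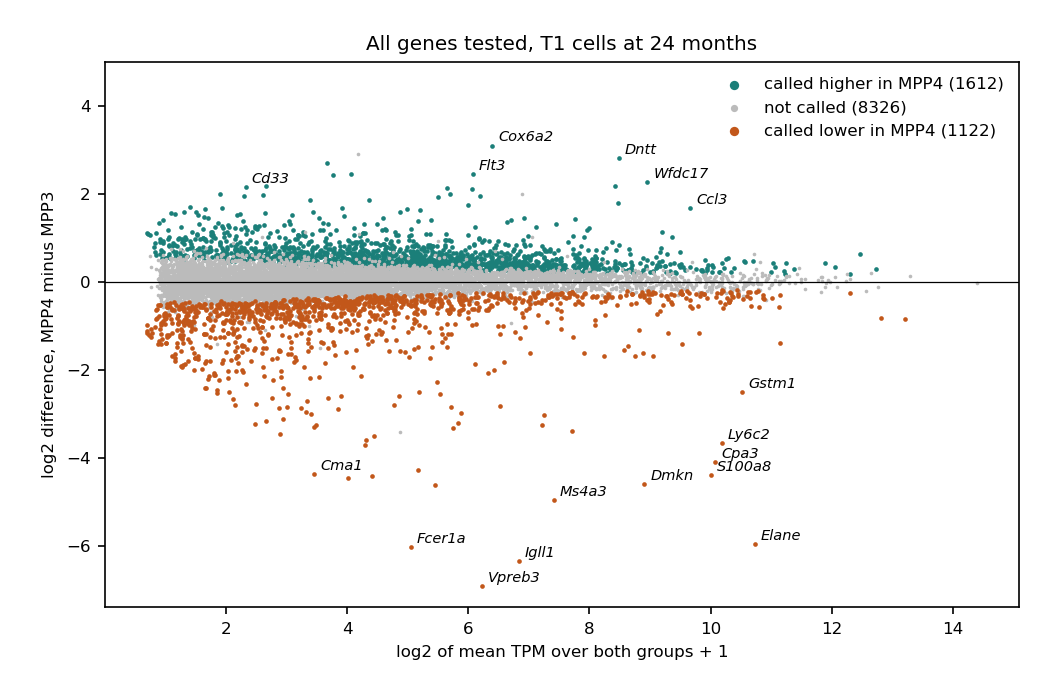
Each point is 1 of the genes tested, with the log2 of its mean TPM plus 1 over both groups on the horizontal axis and the log2 difference of MPP4 minus MPP3 on the vertical axis. Green points were called higher in MPP4 (1612), orange points lower (1122), and grey points were not called (8326). The points farthest from 0 lie below it, with Vpreb3, Igll1, Fcer1a and Elane at differences near or below -6, while no called gene lies above Cox6a2 at 3.10. Vpreb3 and Fcer1a passed the filter only through MPP3, so their direction was set by it.

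Bcl11a itself, on chromosome 11 (24078056 to 24174123, plus strand, GRCm38), had 22.7, 26.5 and 26.2 TPM in MPP4 libraries and 8.52, 12.9 and 12.1 TPM in MPP3 libraries. All 3 MPP4 libraries lay above all MPP3 libraries, with a log2 difference of 1.12 ± 0.15 (SE) and an adjusted p of 0.000203. The call was lost only when the test asked for a difference beyond log2 1. In T2 cells of the same age Bcl11a averaged 66.7 ± 4.23 TPM in MPP4 and 39.1 ± 5.63 TPM in MPP3, and in T1 cells at 3 months 39.4 ± 3.83 TPM in MPP4 and 45.2 ± 2.79 TPM in MPP3 (mean ± SD over 3 libraries each, as for all means below). Of 21 tested members of a list of Bcl11a and corepressor partners, 5 were higher and 3 were lower, beside 14.6% and 10.1% of all genes tested. The median was 0.01 beside 0.02 over all genes, and -0.01 after median-ratio rescaling. The higher members besides Bcl11a were Rbbp7, at 602 ± 21.5 TPM in MPP4 and 445 ± 29.4 TPM in MPP3, with Hdac1, Mbd3 and Rbbp4, histone deacetylase and chromatin-binding subunits. Mbd2, a reader of methylated DNA, was lower at 42.1 ± 3.96 TPM in MPP4 against 59.2 ± 7.63 TPM in MPP3, as were the corepressors Rcor1 and Bcor. The list had 1 member lower without any 1 of the MPP4 libraries, without MPP3 replicate 2 or without MPP3 replicate 3, and 4 higher without MPP4 replicate 1 or without MPP3 replicate 3.

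Genes of the sorting gate were given whether or not they moved. Flt3, the cytokine receptor that defines MPP4, had 116, 106 and 116 TPM in MPP4 libraries and 20.2, 19.5 and 19.95 TPM in MPP3 libraries. The groups were far apart, with a log2 difference of 2.45 ± 0.09 (SE) and an adjusted p of 1.72e-09. Cd34, a sialomucin of early progenitors, was also higher, at 249 ± 18.6 TPM in MPP4 and 99.2 ± 6.68 TPM in MPP3, as was Ly6a, which encodes Sca-1, at 1486 ± 118 and 1023 ± 11.2 TPM in the same order. Kit, the stem cell factor receptor, was lower, at 41.5 ± 3.07 TPM in MPP4 and 61.4 ± 9.38 TPM in MPP3. The Fc receptor genes were lower too: Fcgr3 had 0.546, 1.801 and 1.68 TPM in MPP4 libraries and 18.5, 14.1 and 17.7 TPM in MPP3 libraries, and Fcgr2b averaged 46.6 ± 3.31 and 91.2 ± 12.8 TPM. These receptors are near copies of each other, and how shared reads were assigned is not given. Il7r, the interleukin-7 receptor chain of lymphoid progenitors, was lower in MPP4, at 4.25, 4.94 and 3.18 TPM against 9.71, 6.52 and 8.04 TPM in MPP3. The integrin Itga2b (CD41), which passed the filter only through MPP3, stood at 0.42 ± 0.219 TPM in MPP4 and 3.01 ± 0.137 TPM in MPP3. Cd48 (1989 ± 31.6 TPM in MPP4, 2079 ± 27.8 TPM in MPP3), Eng (5.82 ± 0.465 and 5.36 ± 0.907 TPM) and Ly6e (2932 ± 264 and 2788 ± 333 TPM) did not pass the test, and Slamf1 stayed below 1 TPM on average in both groups.

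Genes listed with the primary granules, which neutrophils and monocytes use to kill and digest microbes, were mostly lower in MPP4. The list holds granule enzymes and also other genes, such as the membrane protein Ms4a3, the receptor Igsf6 and the protease inhibitor Cst7. Of 14 members tested, 13 were lower and 0 were higher, with a median log2 difference of -1.43. Elane, neutrophil elastase, on chromosome 10 (79886247 to 79888215, plus strand, GRCm38), had 57.4, 48.4 and 50.2 TPM in MPP4 libraries and 3900.1, 2694 and 3425 TPM in MPP3 libraries. Its log2 difference of -5.97 ± 0.12 (SE) had an adjusted p of 8.33e-11, and it was among the genes of largest TPM difference of all. Ms4a3, a membrane protein of granulocyte and monocyte progenitors, had 9.47, 9.32 and 9.79 TPM in MPP4 libraries and 339, 321 and 325 TPM in MPP3 libraries. Both groups were tight, and the log2 difference was -4.97 ± 0.08 (SE, adjusted p 4.64e-12). Mpo, myeloperoxidase, on chromosome 11 (87793581 to 87804413, plus strand, GRCm38), was lower with 69.6, 59.1 and 60.7 TPM in MPP4 libraries against 211, 186 and 187 TPM in MPP3 libraries. The proteases Ctsg (cathepsin G) and Prtn3 (proteinase 3) kept high levels in both groups, with means of 1248 ± 32.1 and 548 ± 30.7 TPM in MPP4 against 3278 ± 171 and 1235 ± 105 TPM in MPP3. The haptoglobin gene Hp averaged 27.2 ± 3.61 TPM in MPP4 and 269 ± 29.6 TPM in MPP3, the receptor gene Igsf6 10.2 ± 0.851 and 102 ± 1.96 TPM, and the ficolin gene Fcnb, which passed the filter only through MPP3, 0.268 ± 0.32 and 12.7 ± 1.01 TPM. Plac8 was lower by less on the log2 scale (-0.82) but by much in TPM, at 5174 ± 30.4 TPM in MPP4 and 9141 ± 224 TPM in MPP3. Cst7, a protease inhibitor, was the member not called, at 458 ± 44.03 TPM in MPP4 and 519 ± 35.7 TPM in MPP3.

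Promoters of granule genes are shown because their genes moved together and 3 of 11 with a RefSeq promoter held the letters GAGGAAGT, a form of the element bound by the factor PU.1, on either strand (as written or as ACTTCCTC). The same letters were found in 4.04% of the 8335 promoters of tested genes of the same length. They were in 6.36% of promoters of genes called higher by at least 2-fold and in 6.54% of those called lower by as much. The windows run from 250 bases before to 50 bases after the RefSeq gene start (GRCm38.p6). They read 5′ to 3′ on the strand of the gene, with the matched letters in capitals. For Elane and Mpo the RefSeq start differs from that of the positions given above, which came from GENCODE. The match is a description of the sequence, not of binding.
Elane, chr10:79886062-79886361, plus strand: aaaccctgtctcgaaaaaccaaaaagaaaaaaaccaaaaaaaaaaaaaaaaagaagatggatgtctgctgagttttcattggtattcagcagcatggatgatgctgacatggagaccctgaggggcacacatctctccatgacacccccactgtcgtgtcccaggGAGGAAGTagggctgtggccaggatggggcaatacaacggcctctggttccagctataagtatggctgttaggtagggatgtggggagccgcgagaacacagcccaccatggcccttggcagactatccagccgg
Mpo, chr11:87793534-87793833, plus strand: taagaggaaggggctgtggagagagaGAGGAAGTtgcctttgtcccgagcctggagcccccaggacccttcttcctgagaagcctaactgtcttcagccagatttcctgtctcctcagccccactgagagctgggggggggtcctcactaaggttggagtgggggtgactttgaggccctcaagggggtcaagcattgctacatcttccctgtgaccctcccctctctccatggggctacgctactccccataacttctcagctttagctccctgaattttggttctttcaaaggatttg
The third promoter with these letters was that of Prtn3, a neighbour of Elane on chromosome 10. The factor's own gene, Spi1, was higher in MPP4, at 54.7 ± 7.84 TPM against 26.4 ± 10.3 TPM in MPP3.

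Receptors and regulators of myeloid cells leaned to MPP3 with exceptions. Of 18 tested members, 9 were lower in MPP4 and 3 were higher, with a median of -0.46. Ly6c2, a surface protein of monocytes with near copies in its family, had 181, 161 and 160.2 TPM in MPP4 libraries and 2243, 2161 and 2044 TPM in MPP3 libraries (log2 difference -3.68 ± 0.07 SE, adjusted p 8.37e-12). Cebpe, the factor of late granule formation, which is among the 9 but passed the filter only through MPP3, averaged 0.266 ± 0.267 TPM in MPP4 and 6.08 ± 0.538 TPM in MPP3, and Cebpa, the factor of granulocyte and monocyte commitment, 0.958 ± 0.14 and 1.94 ± 0.496 TPM. Clec12a, an inhibitory lectin, was lower at 230.5 ± 2.72 TPM in MPP4 and 714 ± 32.9 TPM in MPP3. The receptors Csf3r, for G-CSF, and Csf2rb, shared by the receptors of GM-CSF, interleukin-3 and interleukin-5, were lower, with 20.3 ± 0.342 and 7.46 ± 0.918 TPM in MPP4 and 28.5 ± 2.15 and 14.4 ± 3.02 TPM in MPP3. The 3 higher members were Cd33, Spi1 and Irf8. Cd33, a sialic acid lectin of myeloid cells, had 6.41, 8.49 and 6.69 TPM in MPP4 libraries and 0.977, 0.479 and 1.09 TPM in MPP3 libraries. Irf8, a factor of monocytes and dendritic cells, averaged 15.7 ± 0.698 TPM in MPP4 and 7.35 ± 0.56 TPM in MPP3. Csf1r, the receptor of M-CSF, did not pass the test.

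Markers of mature neutrophils and macrophages were more often lower than higher in MPP4. Of 11 neutrophil genes tested 6 were lower and 1 was higher, with Cd177 among the lower only through MPP3, and their summed level over the whole list, tested or not, was 191 to 217 TPM in MPP4 libraries against 2306 to 2678 TPM in MPP3 libraries. S100a8, a calcium-binding alarmin, had the highest level of the list in all MPP3 libraries, with 88.2, 101 and 88.8 TPM in MPP4 libraries and 1846, 2150.2 and 1882 TPM in MPP3 libraries. Its partner S100a9 averaged 35.8 ± 4.87 TPM in MPP4 and 381 ± 33.2 TPM in MPP3. Ngp, a protein of secondary granules, went the other way and was higher in MPP4, at 8.63, 8.91 and 8.77 TPM against 1.75, 1.37 and 1.31 TPM in MPP3. Of other genes of mature neutrophils, Mmp9 was below 0.1 TPM on average in both groups, and Camp, at 14.7 ± 2.997 TPM in MPP4 and 19.5 ± 1.898 TPM in MPP3, and Retnlg, at 1.42 ± 0.682 and 1.403 ± 0.779 TPM, did not pass the test. Of 10 macrophage and monocyte genes tested, 7 were lower (Lyz1 only through MPP3) and 1 was higher, with list sums of 698 to 787 TPM in MPP4 and 1104 to 1329 TPM in MPP3. Adgre1, which encodes F4/80, averaged 1.35 ± 0.216 TPM in MPP4 and 17.8 ± 1.92 TPM in MPP3, Apoe 12.4 ± 2.67 and 104 ± 9.64 TPM, the chemokine receptor Ccr2 11.4 ± 1.64 and 27.5 ± 3.56 TPM, and lysozyme, Lyz2, 655 ± 43.5 and 998 ± 98.04 TPM. Mrc1 was below 0.3 TPM on average in both groups. The part of such cells in the other differences was not tested.

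**Figure D2:**
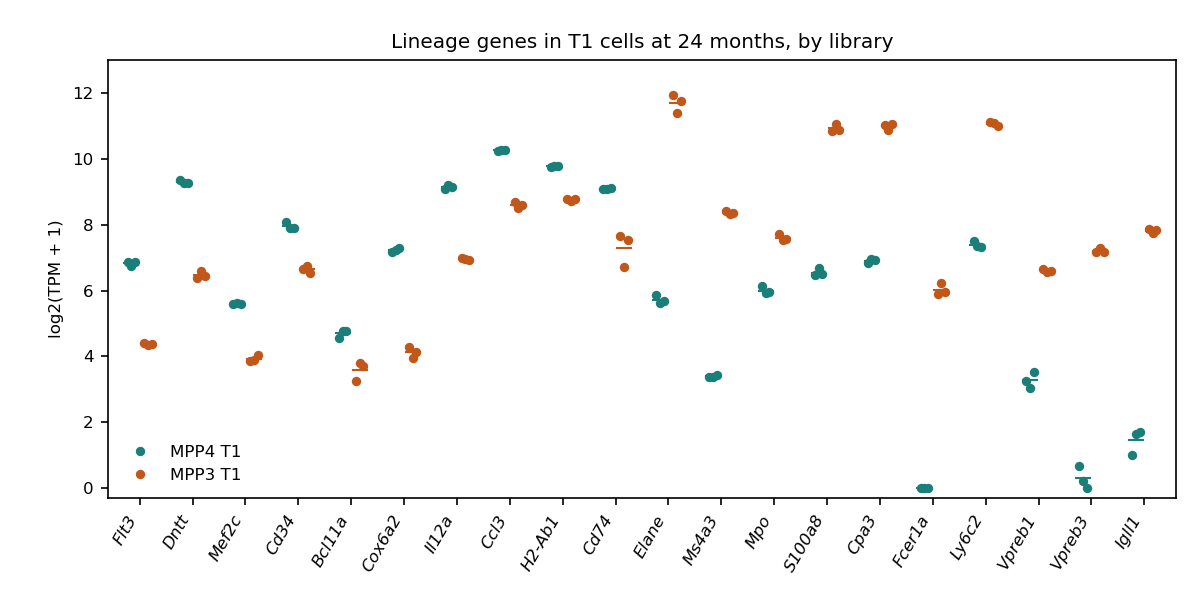
Each dot is 1 library, with log2(TPM + 1) on the vertical axis and MPP4 T1 (green) left of MPP3 T1 (orange) for each gene, and a bar at the mean of the 3 libraries. The genes on the left, from Flt3 to Cd74, are higher in all MPP4 libraries, and those on the right, from Elane to Igll1, are lower. They are examples and not whole lists, and lower lymphoid and dendritic genes such as Il7r and Itgax are not drawn. Fcer1a is listed at 0 in all 3 MPP4 libraries. Fcer1a and Vpreb3 passed the filter only through MPP3, so their direction was set by it.

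Genes of basophils, mast cells and eosinophils were lower in MPP4 or did not reach the filter. Of 21 members, 11 were tested and 11 were lower, but 5 of these had passed the filter only through MPP3, where they had to be the higher group, and 11 of the 21 were listed at 0 in all MPP4 libraries against 2 in all MPP3 libraries. Without any 1 of the MPP3 libraries 6 members were called, since those 5 could then no longer be tested. Cpa3, the carboxypeptidase of mast cell granules, had 113, 123 and 119.6 TPM in MPP4 libraries and 2070.5, 1889.6 and 2151 TPM in MPP3 libraries (log2 difference -4.09 ± 0.07 SE, adjusted p 4.79e-12). Fcer1a, the alpha chain of the receptor for IgE, was listed at 0 in all MPP4 libraries and had 58.1, 74.5 and 60.6 TPM in MPP3 libraries. Cma1, a chymase, was also listed at 0 in MPP4 and had 24.7, 17.01 and 18.4 TPM in MPP3. Fcer1a and Cma1 are among the 5 that passed the filter only through MPP3. Mcpt8, a protease of basophils, was high in both groups, at 124 ± 15.6 TPM in MPP4 and 299 ± 14.98 TPM in MPP3, and Fcer1g, the signalling chain shared by Fc receptors, averaged 142 ± 7.63 and 463 ± 11.9 TPM. Gata2, the factor of stem cells and mast cells, was lower at 4.77 ± 0.764 TPM in MPP4 and 12.04 ± 2.46 TPM in MPP3. The list summed to 408 to 468 TPM in MPP4 libraries and 2869 to 3074 TPM in MPP3 libraries, and Mcpt4 and Tpsab1, markers of mature mast cells, were listed at 0 in all 6.

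Erythroid genes went both ways. Of 11 tested, 5 were lower and 1 was higher in MPP4, but 2 of the 5, Gata1 and Klf1, had passed the filter only through MPP3. The counts were 3 lower without MPP3 replicate 2, 2 lower without MPP3 replicate 3, and 3 higher without MPP4 replicate 2 or without MPP3 replicate 1. The list summed to 471 to 492 TPM in MPP4 libraries and 379 to 470.4 TPM in MPP3 libraries. Gata1, the central factor of the erythroid and megakaryocyte lineages, averaged 0.241 ± 0.231 TPM in MPP4 and 3.84 ± 0.0708 TPM in MPP3, and Car1, a carbonic anhydrase of red cell precursors, 5.83 ± 0.513 and 47.3 ± 9.15 TPM. Car2, another carbonic anhydrase, was the higher member, at 412 ± 4.34 TPM in MPP4 and 308 ± 39.99 TPM in MPP3. Globin genes stayed below 6 TPM on average in both groups, and Hba-a2, a near copy of Hba-a1, had 2.41, 0.884 and 2.24 TPM in MPP4 libraries and 5.37, 5.17 and 5.86 TPM in MPP3 libraries. Its call was lost when the spread was taken from T2 libraries as well (adjusted p 0.551 to 0.645). Of 9 megakaryocyte and platelet genes tested, 7 were lower and 0 were higher, but 2 of the 7, Itga2b and Treml1, had passed the filter only through MPP3, and 4 were lower without MPP3 replicate 1 or without MPP3 replicate 3. Pf4, a platelet chemokine, was the clearest, with 5.48, 6.84 and 5.5 TPM in MPP4 libraries and 28.5, 33.2 and 27.5 TPM in MPP3 libraries. Gp6 was listed at 0 in all 6 libraries and Vwf stayed below 0.2 TPM.

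Most tested transcripts of early B cells were lower in MPP4, the subset known for its lymphoid output. Of 11 tested B lineage genes 8 were lower and 1, Cd72, was higher, with a median of -2.12, but 4 of the 8, among them Vpreb3 and Ebf1, had passed the filter only through MPP3, and without any 1 of the MPP3 libraries 4 were lower. Vpreb3, a chaperone of the pre-B cell receptor on chromosome 10 (75943057 to 75949657, plus strand, GRCm38), had 0.592, 0.166 and 0 TPM in MPP4 libraries and 144, 155 and 144 TPM in MPP3 libraries. Igll1, a chain of the surrogate light chain on chromosome 16 (16860671 to 16863985, minus strand, GRCm38), had 1.004, 2.15 and 2.29 TPM in MPP4 and 231, 213 and 229.8 TPM in MPP3. These were the 2 lowest log2 differences of all called genes, -6.92 ± 0.16 and -6.36 ± 0.16 (SE), with adjusted p of 3.46e-11 and 1.03e-10. Vpreb1, the other part of the surrogate light chain, averaged 8.81 ± 1.67 TPM in MPP4 and 96.6 ± 3.08 TPM in MPP3, and its near copy Vpreb2 1.09 ± 1.01 and 39.6 ± 4.08 TPM, so reads of the pair may have been split. Cd79a, a signalling chain of the B cell receptor, had 1.94, 1.63 and 1.42 TPM in MPP4 libraries and 49.9, 21.4 and 35.99 TPM in MPP3 libraries. The factor Ebf1, which opens the B cell programme, averaged 0.318 ± 0.19 TPM in MPP4 and 4.73 ± 0.625 TPM in MPP3, and Pax5, which was not tested, 0 ± 0 and 0.517 ± 0.151 TPM. The list summed to 164 to 176 TPM in MPP4 and 632 to 705 TPM in MPP3, and the part of admixed B cell precursors was not tested. Cd79b, at 100.2 ± 5.42 TPM in MPP4 and 86.6 ± 17.5 TPM in MPP3, and Bach2 did not pass the test. Among 5 tested genes of plasma cells, Jchain, Mzb1 and Xbp1 were lower, and Sdc1 was called higher but had passed the filter only through MPP4. Jchain averaged 0.972 ± 0.28 TPM in MPP4 and 13.2 ± 1.29 TPM in MPP3, and Mzb1 1.04 ± 0.35 and 18.9 ± 2.76 TPM.

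Early lymphoid priming genes were more often higher than lower in MPP4. Of 21 tested, 13 were higher (Ccr7 only through MPP4) and 3 were lower (Il7r, Tcf3 and Blnk), with a median log2 difference of 0.73. Dntt, terminal transferase, on chromosome 19 (41029275 to 41059525, plus strand, GRCm38), had 651, 615 and 613 TPM in MPP4 libraries and 81.9, 95.3 and 86.04 TPM in MPP3 libraries. Its groups were far apart, with a log2 difference of 2.82 ± 0.08 (SE) and an adjusted p of 1.55e-10. Mef2c, a factor that favours lymphoid over myeloid fate, had 47.5, 48.1 and 47.04 TPM in MPP4 libraries and 13.6, 13.8 and 15.5 TPM in MPP3 libraries. Cnn3, a calponin, had 81.98, 75.98 and 89.1 TPM in MPP4 and 20.6, 17.1 and 21.9 TPM in MPP3. The chromatin organiser Satb1 averaged 49.95 ± 0.807 TPM in MPP4 and 28.6 ± 5.63 TPM in MPP3, the receptor Notch1 5.87 ± 0.608 and 3.14 ± 0.382 TPM, and the E protein Tcf4 28.2 ± 1.81 and 14.8 ± 1.05 TPM. Tcf3, another E protein, was lower at 6.599 ± 0.664 TPM in MPP4 and 9.05 ± 0.439 TPM in MPP3, and Blnk, an adaptor of the B cell receptor, was lower at 6.51 ± 0.718 TPM in MPP4 and 18.9 ± 5.396 TPM in MPP3. Ikzf1, at 46.2 ± 3.06 TPM in MPP4 and 46.6 ± 5.06 TPM in MPP3, did not pass the test.

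Genes of T, natural killer and innate lymphoid cells were mixed. Of 10 tested, 7 were lower and 2 were higher in MPP4. Gzmb, granzyme B, had 12.7, 11.2 and 11.4 TPM in MPP4 libraries and 94.6, 89.95 and 87.9 TPM in MPP3 libraries, and Trat1, an adaptor protein of T cells, averaged 117 ± 9.33 TPM in MPP4 and 363 ± 28.4 TPM in MPP3. Tcf7, the factor TCF-1, was lower at 1.08 ± 0.219 TPM in MPP4 and 5.92 ± 0.704 TPM in MPP3. The higher members were the lectin receptor Klrd1 (CD94), with 34.7, 31.8 and 27.9 TPM in MPP4 and 6.91, 7.57 and 9.099 TPM in MPP3, and the kinase Lck, at 26.7 ± 1.46 and 10.3 ± 2.37 TPM. The T cell receptor genes Cd3e, Cd3d and Cd3g averaged at most 1.06 ± 1.12 TPM in either group, with Cd3e and Cd3g listed at 0 in all MPP4 libraries. The list summed to 1946 to 2141 TPM in MPP4 and 3164 to 3389.6 TPM in MPP3, most of it Nkg7, which averaged 1797 ± 98.1 and 2686 ± 89.7 TPM. Nkg7 counts in the primary granule list as well.

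Dendritic cell genes went both ways, while all tested MHC class II genes were higher in MPP4. Of 13 dendritic cell genes tested, 7 were higher and 3 were lower. Cox6a2, a cytochrome oxidase subunit of plasmacytoid dendritic cells and muscle, had the largest log2 difference of all genes called higher, with 144, 148 and 156 TPM in MPP4 libraries and 18.5, 14.5 and 16.6 TPM in MPP3 libraries (log2 difference 3.10 ± 0.10 SE, adjusted p 7.88e-10). Ly6d, which marks early lymphoid and plasmacytoid cells, averaged 96.4 ± 8.22 TPM in MPP4 and 40.3 ± 6.604 TPM in MPP3, and Cd7 14.2 ± 1.29 and 8.66 ± 1.64 TPM. The lower members were Pld4, Itgax (CD11c) and Ly86. Defining genes of mature dendritic cells, Zbtb46, Clec9a and Siglech, stayed below 1 TPM on average in both groups. Of 9 MHC class II genes 8 were tested and 8 were higher in MPP4, beside 14.6% of all genes, with a median of 0.93. Cd74, the invariant chain, had 536, 539 and 555 TPM in MPP4 libraries and 199, 104 and 183 TPM in MPP3 libraries. H2-Ab1, a chain of the presenting molecule, had 869, 884 and 875 TPM in MPP4 and 441, 418 and 438 TPM in MPP3, and its partner H2-Aa averaged 323 ± 35.9 and 159 ± 5.85 TPM. The groups did not overlap for either. H2-DMa, which loads peptides, averaged 431 ± 17.5 TPM in MPP4 and 260.0 ± 25.8 TPM in MPP3, and H2-Ob, which restrains loading, 31.02 ± 2.57 and 11.9 ± 0.602 TPM. Ciita, the master regulator of these genes, was below the filter at 0.995, 0.777 and 0.799 TPM in MPP4 libraries and 0.583, 0.568 and 0.644 TPM in MPP3 libraries. Classical MHC genes resemble each other, and how shared reads were assigned is not given.

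The promoters of H2-Aa and H2-Eb1 are shown because all MHC class II genes tested rose together. The letters ATTGG or their complement CCAAT, the Y box of these promoters, were present in 6 of the 6 with a RefSeq promoter and in 43.2% of the 8335 promoters of tested genes. The longer form CTGATTGG was present in 3 of 6 (H2-Aa, H2-Eb1 and H2-Oa) and in 6.91% of all. It was in 2.73% of promoters of genes called higher by at least 2-fold and in 2.8% of those called lower by as much. Windows are as above, with ATTGG or CCAAT in capitals.
H2-Aa, chr17:34287774-34288073, minus strand: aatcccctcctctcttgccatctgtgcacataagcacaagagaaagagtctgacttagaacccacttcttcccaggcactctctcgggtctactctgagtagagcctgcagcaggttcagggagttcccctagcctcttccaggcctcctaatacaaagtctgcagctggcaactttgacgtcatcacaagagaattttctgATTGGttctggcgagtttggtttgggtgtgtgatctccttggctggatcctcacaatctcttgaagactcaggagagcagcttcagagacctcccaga
H2-Eb1, chr17:34305617-34305916, plus strand: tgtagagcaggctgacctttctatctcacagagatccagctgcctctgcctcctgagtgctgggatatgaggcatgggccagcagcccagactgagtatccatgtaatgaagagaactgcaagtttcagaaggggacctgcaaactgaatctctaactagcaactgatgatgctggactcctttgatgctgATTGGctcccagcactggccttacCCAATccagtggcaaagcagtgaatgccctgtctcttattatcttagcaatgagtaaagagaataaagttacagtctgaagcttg

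**Figure D3:**
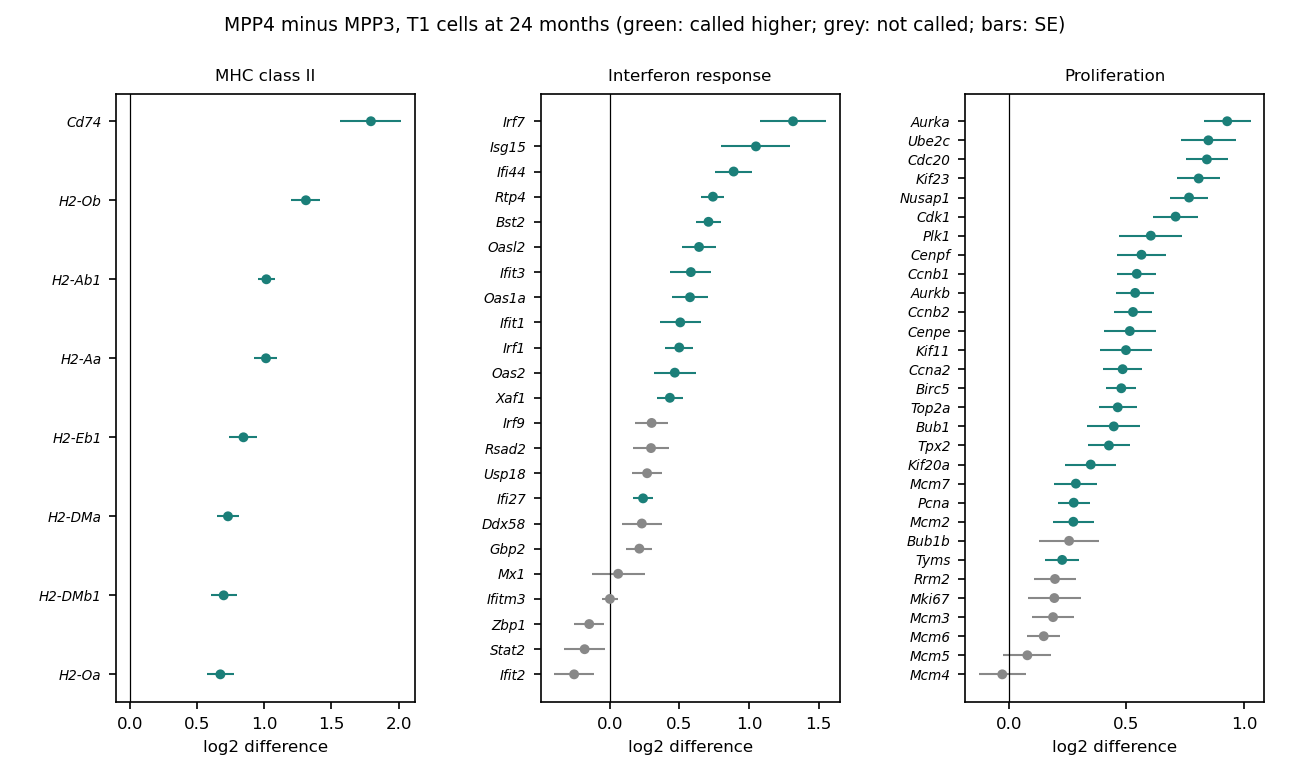
Log2 difference of MPP4 minus MPP3 (horizontal axis) with its SE for tested genes of 3 lists (23 of the 24 interferon genes are drawn), ordered by size, with genes called higher in green and genes not called in grey. All 8 MHC class II genes, 13 of 24 interferon genes and 23 of 30 proliferation genes were called higher, and 0 of these 3 lists were called lower.

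About as many interferon response genes were higher in MPP4 as did not pass the test. Of 24 tested, 13 were higher and 0 were lower, with a median of 0.37, and 8 were higher without MPP4 replicate 1. Irf7, the factor that amplifies the response, had 15.5, 7.61 and 9.93 TPM in MPP4 libraries and 5.08, 3.17 and 2.95 TPM in MPP3 libraries. Bst2 (tetherin) averaged 194 ± 21.1 TPM in MPP4 and 118 ± 6.27 TPM in MPP3, Rtp4 202 ± 5.15 and 121 ± 10.9 TPM, Ifi44 26.5 ± 3.3 and 13.9 ± 2.08 TPM, and the ubiquitin-like Isg15 12.1 ± 2.12 and 5.59 ± 2.26 TPM. Among members that did not pass the test, the membrane protein gene Ifitm3 averaged 2883 ± 78.1 TPM in MPP4 and 2882 ± 139 TPM in MPP3. A form of the interferon-stimulated response element was searched, GAAA followed by any 2 letters and again GAAA on either strand. It was found in 10 of 17 promoters of this list and in 4.02% of the 8335. Among promoters of genes called by at least 2-fold it was in 6.36% of the higher and 6.54% of the lower. The promoter of Isg15 is shown as an example, with each match in capitals and overlapping matches joined.
Isg15, chr4:156200769-156201068, minus strand: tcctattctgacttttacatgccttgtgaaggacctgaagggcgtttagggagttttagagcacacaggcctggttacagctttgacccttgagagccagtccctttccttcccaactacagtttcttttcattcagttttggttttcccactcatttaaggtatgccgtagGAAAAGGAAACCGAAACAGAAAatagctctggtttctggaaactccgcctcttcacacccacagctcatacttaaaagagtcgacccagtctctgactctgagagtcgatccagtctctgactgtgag

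Genes of NF-kappa-B signalling and immediate early genes were also more often higher than lower. Of 22 NF-kappa-B and inflammation genes tested, 13 were higher and 2 were lower. The chemokine Ccl3 had 1217, 1239 and 1221 TPM in MPP4 libraries and 409, 359 and 384 TPM in MPP3 libraries (log2 difference 1.67 ± 0.07 SE, adjusted p 6.53e-09), and its neighbour Ccl4 averaged 4335 ± 56.9 TPM in MPP4 and 3229 ± 72.96 TPM in MPP3. The inhibitor Nfkbia averaged 262 ± 57.6 TPM in MPP4 and 138 ± 21.9 TPM in MPP3, Tnf 20.99 ± 1.85 and 10.8 ± 0.631 TPM, and Cxcl2, which draws neutrophils, 16.02 ± 3.05 and 5.19 ± 0.531 TPM. Ccl5 was lower at 30.04 ± 2.41 TPM in MPP4 and 69.5 ± 5.61 TPM in MPP3, as was Ptgs2. Of 22 immediate early and AP-1 genes tested, 10 were higher and 2 (Fosb and Egr1) were lower. Dusp2, a phosphatase of MAP kinases, averaged 95.8 ± 11.1 TPM in MPP4 and 47.6 ± 2.88 TPM in MPP3, Ier2 190.1 ± 33.3 and 112 ± 19.6 TPM, Ier3 191 ± 36.4 and 115 ± 6.21 TPM and Fos 1005 ± 84.1 and 844 ± 30.7 TPM. Fosb averaged 38.6 ± 0.693 TPM in MPP4 and 63.3 ± 9.88 TPM in MPP3 and Egr1 43.1 ± 1.72 and 69.7 ± 16.4 TPM. Jun was not called, at 53.1 ± 3.76 TPM in MPP4 and 57.4 ± 2.52 TPM in MPP3.

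Most of the cell cycle genes tested were higher in MPP4. Of 30 proliferation genes tested, 23 were higher and 0 were lower, beside 14.6% of all genes called higher, with a median of 0.47. The list summed to 4729 to 4788 TPM in MPP4 libraries and 3444 to 3587 TPM in MPP3 libraries. The mitotic kinase Aurka had 72.2, 64.8 and 65.6 TPM in MPP4 libraries and 39.3, 33.2 and 32.8 TPM in MPP3 libraries (log2 difference 0.93 ± 0.10 SE, adjusted p 4.1e-05). Cdc20, an activator of the anaphase-promoting complex, averaged 86.9 ± 4.23 TPM in MPP4 and 48.1 ± 3.49 TPM in MPP3, the spindle gene Nusap1 107 ± 5.51 and 62.7 ± 1.49 TPM, the kinesin Kif23 44.9 ± 0.872 and 25.2 ± 0.993 TPM and Cdk1 143 ± 12.8 and 86.9 ± 8.78 TPM. Members not called were Mki67, Bub1b, Rrm2 and the replicative helicase genes Mcm3, Mcm4, Mcm5 and Mcm6. Mki67 stood at 41.6, 49.2 and 53.6 TPM in MPP4 and 37.5, 44.8 and 43.2 TPM in MPP3. Stmn1, a microtubule regulator and the largest rise in TPM, averaged 6900.2 ± 237 TPM in MPP4 and 4439.7 ± 332 TPM in MPP3. Cdkn1a, the cell cycle inhibitor p21, was also higher, at 207 ± 8.76 TPM in MPP4 and 131 ± 4.51 TPM in MPP3.

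Counts for genes of growth and metabolism stand beside 14.6% of all genes tested called higher and 10.1% lower. Of 30 Myc target and nucleolar genes tested 9 were higher and 0 were lower, and 4 were higher without MPP4 replicate 3 or without MPP3 replicate 3 and 5 under rescaling. Nop56, a nucleolar protein, averaged 264 ± 12.2 TPM in MPP4 and 179 ± 23.1 TPM in MPP3, while Myc itself did not pass the test at 108 ± 2.26 TPM in MPP4 and 102 ± 4.53 TPM in MPP3. Of 19 chaperone genes 7 were higher and 0 were lower (3 higher without MPP4 replicate 3 or without MPP3 replicate 3), among them Stip1, a cochaperone, at 120.2 ± 6.53 TPM in MPP4 and 88.5 ± 7.26 TPM in MPP3. Of 80 cytosolic ribosomal protein genes, many of which have near-identical pseudogenes, 5 were higher and 1 was lower, with a median of 0.01. The sign of that median turned under rescaling (-0.01), and the list had 10 calls without MPP4 replicate 2 and 3 without MPP3 replicate 3. Of 58 nuclear genes of oxidative phosphorylation, 11 were higher and 18 were lower. Among the higher was Cyc1, at 254 ± 21.9 TPM in MPP4 and 176 ± 20.2 TPM in MPP3, and among the lower Uqcrb, at 1619 ± 94.5 and 2131 ± 165 TPM. Without MPP4 replicate 1, MPP4 replicate 3, MPP3 replicate 2 or MPP3 replicate 3 the calls of this list numbered 19, 18, 19 and 15. Of 19 glycolysis genes 2 were higher and 2 were lower, with 1 or 2 calls left without MPP4 replicates 1, 2 or 3 or MPP3 replicates 2 or 3, and a median of 0.02 that was -0.003 under rescaling.

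Genes of p53 and of cell death did not move one way. Of 17 p53 and DNA damage genes tested 7 were higher (Phlda3 only through MPP4) and 5 were lower, and 3 were lower without MPP4 replicate 1 or without MPP3 replicate 3. Plk2, a kinase, averaged 60.1 ± 5.99 TPM in MPP4 and 21.8 ± 1.06 TPM in MPP3, while Perp, a membrane protein of p53-driven death, had 1.46, 2.91 and 3.04 TPM in MPP4 libraries and 23.9, 26.9 and 22.3 TPM in MPP3 libraries, and the death receptor Fas averaged 6.46 ± 0.385 and 14.9 ± 1.36 TPM. Of 14 Bcl2 family genes, 4 were higher and 3 were lower. Bax, which drives death, averaged 118 ± 4.11 TPM in MPP4 and 88.3 ± 3.396 TPM in MPP3, Pmaip1 (Noxa) 17.4 ± 1.43 and 10.2 ± 0.614 TPM, and Bcl2, which opposes it, 34.6 ± 1.59 and 27.1 ± 3.16 TPM. The lower members, Bcl2a1a (only through MPP3), Bcl2a1b and Bcl2a1d, are near-identical copies. None of the 3 was called without MPP3 replicate 2 or without MPP3 replicate 3, and the call of Bcl2a1b was lost without the filter, with the spread shared by more libraries and without MPP4 replicate 1, MPP3 replicate 2 or MPP3 replicate 3 (adjusted p 0.0556 to 0.0795). The family had 4 calls without MPP4 replicate 3 or without MPP3 replicate 2 and 2 without MPP3 replicate 3.

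Stem cell genes split. Of 23 tested 8 were higher (5 without MPP4 replicate 2) and 6 were lower, with a median of -0.02. The counts in this paragraph stand beside 14.6% of all genes tested called higher and 10.1% lower. Hoxa9, a homeobox factor of progenitors, had 50.6, 54.1 and 60.3 TPM in MPP4 libraries and 17.6, 18.5 and 15.3 TPM in MPP3 libraries (log2 difference 1.63 ± 0.11 SE, adjusted p 6.42e-07). Procr, the protein C receptor of stem cells, averaged 7.26 ± 1.47 TPM in MPP4 and 2.39 ± 0.415 TPM in MPP3, and the factors Meis1 and Mecom 31.5 ± 0.892 and 5.04 ± 1.6 TPM in MPP4 against 20.8 ± 1.94 and 2.51 ± 0.39 TPM in MPP3. Angpt1, a niche ligand, was lower at 107 ± 3.94 TPM in MPP4 and 152 ± 6.75 TPM in MPP3. Of 22 tested genes known to rise in old stem cells, 11 were lower in MPP4 (Wwtr1 only through MPP3) and 3 were higher. Aldh1a1, an aldehyde dehydrogenase, had 7.09, 7.48 and 5.76 TPM in MPP4 libraries and 22.1, 27.5 and 18.6 TPM in MPP3 libraries, the stress regulator Nupr1 averaged 13.6 ± 1.72 TPM in MPP4 and 43.3 ± 10.8 TPM in MPP3, and the metallothionein Mt1 286 ± 10.6 and 612 ± 28.2 TPM. The 3 higher members, Nr4a1, Fos and Zfp36, are immediate early genes, and 1 was higher without MPP4 replicate 1, MPP4 replicate 3 or MPP3 replicate 3, under rescaling and after the GC and length correction. Of 36 blood transcription factors, 8 were higher and 9 were lower (7 and 3 without MPP3 replicate 3, and 5 lower without MPP4 replicate 3). For 1 of the 36 the filter set the direction, since it reached 1 TPM in 1 group only. Besides those above, Id3 was higher at 51.1 ± 2.603 TPM in MPP4 and 28.1 ± 3.53 TPM in MPP3, and Myb and Gfi1b were lower, at 95.6 ± 8.72 and 7.75 ± 2.12 TPM in MPP4 against 149 ± 21.9 and 17.2 ± 0.685 TPM in MPP3.

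Of 17 galectin, annexin and S100 genes, which bind sugars, membranes and calcium, 11 were lower in MPP4 and 1, Anxa4, was higher. Lgals3, a galectin of macrophages, averaged 7.29 ± 0.595 TPM in MPP4 and 48.8 ± 3.29 TPM in MPP3, and Anxa1, an annexin that limits inflammation, 403 ± 11.1 and 1076 ± 99.1 TPM. Stromal and endothelial genes were near absent, with Col1a1, Col3a1, Lepr and Pdgfra listed at 0 in all 6 libraries and a list sum of 21.1 to 25.3 TPM in MPP4 and 22.6 to 25.1 TPM in MPP3. Of 4 tested, Emcn, an endothelial and stem cell sialomucin, was higher at 4.81 ± 0.821 TPM in MPP4 and 1.38 ± 0.497 TPM in MPP3, and Pdgfrb and Col1a2 were lower, Col1a2 only through MPP3.

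**Figure D4:**
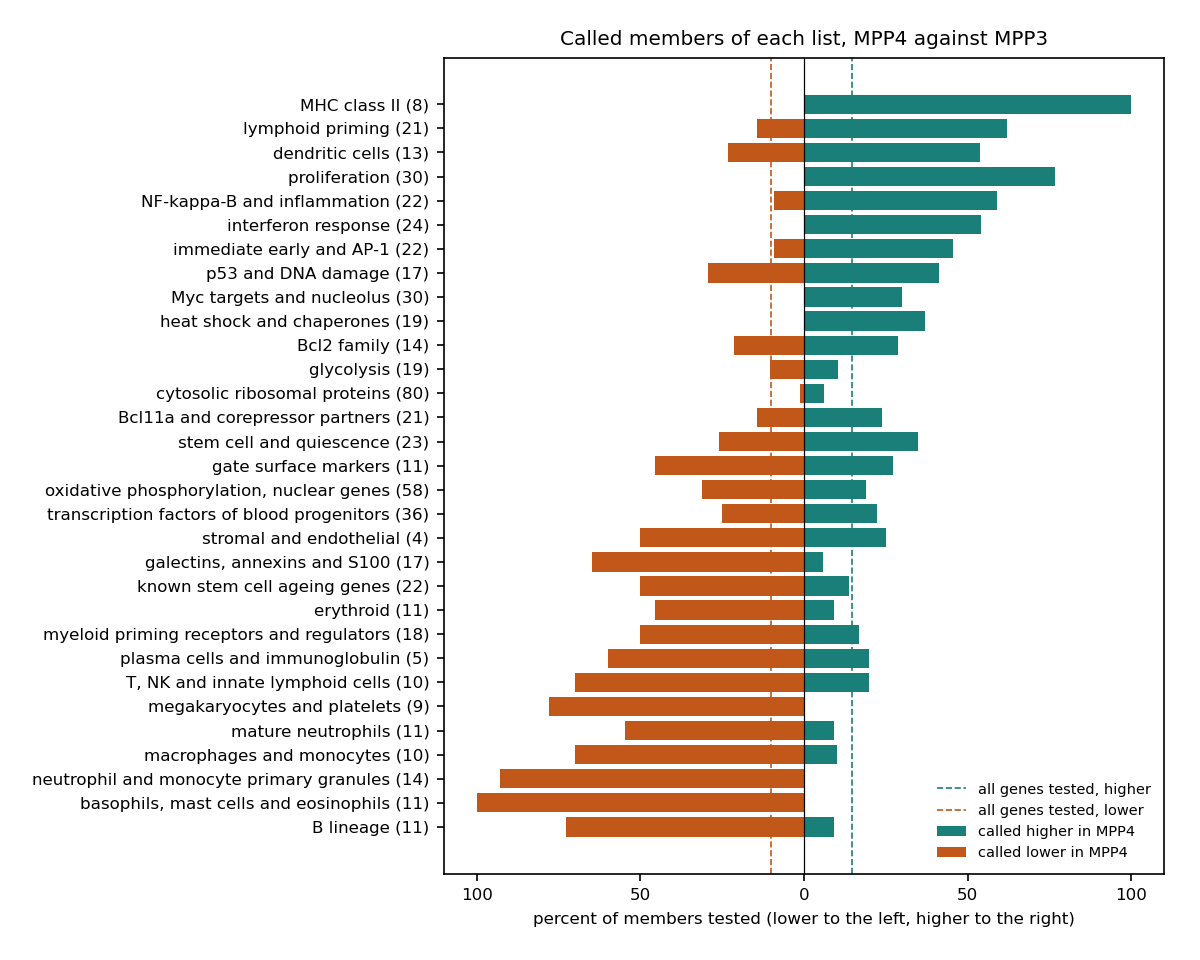
For each list, with the number of members tested in brackets, the green bar to the right is the percentage of tested members called higher in MPP4 and the orange bar to the left the percentage called lower, ordered by the median log2 difference. Dashed lines mark the same percentages over all genes tested, 14.6% higher and 10.1% lower. MHC class II stands at the top with 8 of 8 members higher, and the granule, mast cell and B lineage lists at the bottom.

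Other genes stood among the largest differences without belonging to a list. Il12a, a subunit of cytokines of the interleukin-12 family, had 542, 589 and 562 TPM in MPP4 libraries and 125, 123 and 122 TPM in MPP3 libraries. P2ry14, a receptor of UDP-glucose on progenitors, had 81.7, 84.4 and 77.03 TPM in MPP4 and 20.9, 14.3 and 18.2 TPM in MPP3. The adhesion receptor Adgrl4 averaged 107 ± 5.79 TPM in MPP4 and 24.3 ± 3.96 TPM in MPP3, the lysosomal protease Lgmn 9.35 ± 0.495 and 1.32 ± 0.474 TPM and AA467197 21.05 ± 0.859 and 2.5 ± 1.15 TPM. All 5 were higher in MPP4. A lack of overlap between libraries was a condition for naming genes by size of difference, and 41.2% of all genes tested met it. Wfdc17 and Wfdc18, of the whey acidic protein family, were higher, at 819.5 ± 121 and 27.3 ± 5.88 TPM in MPP4 and 169 ± 21.2 and 4.08 ± 0.361 TPM in MPP3. Wfdc21 of the same family was lower, with 2.67, 2.16 and 2.44 TPM in MPP4 libraries and 78.3, 88.5 and 83.3 TPM in MPP3 libraries, and reads shared within the family could have been split. Dmkn, dermokine, had 32.9, 37.7 and 40.3 TPM in MPP4 libraries and 894, 934 and 929 TPM in MPP3 libraries (log2 difference -4.60 ± 0.08 SE, adjusted p 4.79e-12). Saa3, an acute phase protein, averaged 0.466 ± 0.528 TPM in MPP4 and 29.9 ± 2.69 TPM in MPP3, and the protease inhibitor Serpine2 2.53 ± 0.566 and 67.3 ± 6.43 TPM. The glutathione enzymes Gstm1 and Mgst1 were lower, with 413, 449 and 442 TPM of Gstm1 in MPP4 libraries against 2643, 2266 and 2548 TPM in MPP3 libraries, and 202 ± 15.9 TPM of Mgst1 in MPP4 against 656 ± 16.7 TPM in MPP3. Gpx1, the glutathione peroxidase, was higher by little, at 7510.2 ± 824 TPM in MPP4 and 6099 ± 602 TPM in MPP3 (adjusted p 0.0303). The call of Gpx1 was lost without the filter, under rescaling, without the trend and robust options, with the 12 libraries of 24 months, after the GC and length correction, and without MPP4 replicate 2, MPP4 replicate 3, MPP3 replicate 2 or MPP3 replicate 3 (adjusted p 0.0529 to 0.13). The adenine nucleotide carrier Slc25a5 was higher, at 2762 ± 53.2 TPM in MPP4 and 2060.4 ± 173 TPM in MPP3. The largest fall in TPM was that of Tmsb4x, thymosin beta 4, which binds actin, at 6765 ± 67.4 TPM in MPP4 and 12083 ± 148 TPM in MPP3.

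The difference of MPP4 minus MPP3 was then set against that in T2 cells of the same age, which came from the same pair of tables. In the T2 libraries Y-linked transcripts summed to 158.5 to 169 TPM in MPP4 and 54 to 76.8 TPM in MPP3. The sum was near 0 in all T1 libraries of that age. Xist was also present in the T2 libraries, at 24.3 to 34.1 TPM in MPP4 and 18 to 22.5 TPM in MPP3. T1 and T2 libraries thus differed in sex-linked transcripts, and the part of that in the result was not tested. The difference differed between T1 and T2 cells for 2449 of 11897 genes tested (20.6%), being more positive in T1 for 524 (4.4%) and more negative for 1925 (16.2%). After rescaling by median ratio these counts were 1991 genes (16.7%), 1125 (9.46%) and 866 (7.28%), and the median over all genes moved to -0.01, against -0.22 before, so the balance of directions rested on the scaling. Without MPP3 T1 replicate 3 the count before rescaling was 1603. Gstm1 averaged 492 ± 17.01 TPM in MPP4 T2 cells and 285 ± 31.2 TPM in MPP3 T2 cells, so that it was the higher in MPP4 there and the lower in MPP4 among T1 cells, and the T1 difference minus the T2 difference was -3.30 ± 0.12 log2 units (SE, adjusted p 4.12e-10). Clec12a had the same pattern, with 101 ± 4.05 TPM in MPP4 T2 cells and 45.4 ± 8.45 TPM in MPP3 T2 cells and a difference of differences of -2.77 (adjusted p 2.6e-08), as had Mgst1 (179 ± 25.8 and 125 ± 8.89 TPM in T2 cells, -2.20, adjusted p 2.82e-07). Serpine2 was lower in MPP4 in both, but by less in T2 cells, with 1.61 ± 0.162 TPM in MPP4 T2 cells and 4.53 ± 0.56 TPM in MPP3 T2 cells (-3.20, adjusted p 2.82e-07). Ly6d went the other way, with 29.5 ± 3.86 TPM in MPP4 T2 cells and 167 ± 26.01 TPM in MPP3 T2 cells (3.71, adjusted p 2.6e-08). Jchain was at 23.7 ± 1.69 TPM in MPP4 T2 cells and 2577 ± 441 TPM in MPP3 T2 cells (3.84, adjusted p 1.19e-08). These 6 were past the threshold after rescaling as well.

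Lineage genes described above stood as follows in T2 cells, given as levels without the test outcome of each. Flt3 averaged 196 ± 4.72 TPM in MPP4 T2 cells and 27.99 ± 2.72 TPM in MPP3 T2 cells, and Dntt 700.4 ± 44.2 and 54.9 ± 5.57 TPM. Elane averaged 12.7 ± 2.74 TPM in MPP4 T2 cells and 293 ± 57.1 TPM in MPP3 T2 cells, Ms4a3 7.65 ± 1.97 and 195 ± 12.99 TPM, Vpreb3 3.94 ± 2.14 and 16.2 ± 0.836 TPM, and Cpa3 16.02 ± 1.11 and 383 ± 35.6 TPM. Each of these 6 was on the same side in T1 and in T2 cells, which does not mean that the sizes were alike. For Vpreb3 the groups stood closer in T2 cells than in T1 cells. Of 12 B lineage genes tested, the difference was more negative in T1 for 6 and more positive for 2, before and after rescaling. Over all genes tested for this contrast the shares were 16.2% more negative and 4.4% more positive before rescaling. After rescaling they were 7.28% and 9.46%.

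**Figure D5:**
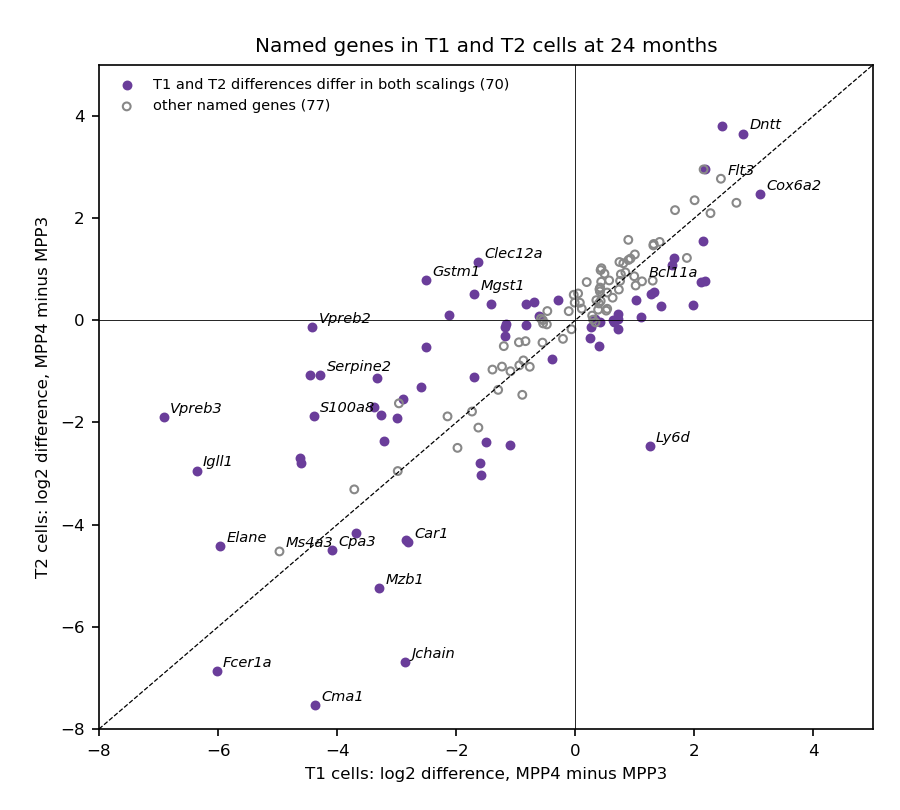
Each point is 1 gene named by the rule, with its log2 difference of MPP4 minus MPP3 in T1 cells on the horizontal axis and in T2 cells on the vertical axis, both at 24 months, and a dashed line where they are equal. Filled points are genes whose T1 and T2 differences differed at an adjusted p of 0.05 both with and without median-ratio rescaling (70), and open points are the rest (77). Gstm1, Clec12a and Mgst1 lie at the upper left and Ly6d at the lower right, where the sign differs between T1 and T2 cells.

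Against T1 cells at 3 months, each of the 4 groups lay in a table of its own, so age, cell type and table cannot be told apart. The difference of MPP4 minus MPP3 differed between 24 and 3 months for 8633 of 12159 genes tested (71%), with 4994 (41.1%) more positive at 24 months and 3639 (29.9%) more negative, and 5599 (46%) by at least 2-fold. After rescaling 8514 genes (70%) differed, 4296 (35.3%) and 4218 (34.7%) in those directions. Y-linked transcripts were listed at 0 in MPP4 T1 cells at 3 months and summed to 64.2 to 78.9 TPM in MPP3 T1 cells at 3 months. Xist stood at 81.9 to 104.9 TPM in those MPP4 libraries and at 28.25 to 32.69 TPM in those MPP3 libraries. Among the 6 genes named for this difference by smallest adjusted p, the MPP3 group of 3 months stood away from the other groups. Psap, a lysosomal protein, averaged 5.89 ± 0.35 TPM in MPP4 and 5.97 ± 0.955 TPM in MPP3 at 24 months, against 9.12 ± 0.0524 TPM in MPP4 and 790.5 ± 28.4 TPM in MPP3 at 3 months (6.28 log2 units, adjusted p 1.02e-13). Ppp2ca, a phosphatase subunit, averaged 325 ± 2.82 and 315 ± 17.01 TPM at 24 months and 438 ± 11.9 and 23.7 ± 2.51 TPM at 3 months in the same order of groups (-4.11, adjusted p 1.38e-13). Nsmce4a, a subunit of a DNA repair complex, averaged 324 ± 12.7 and 248 ± 10.8 TPM at 24 months and 424 ± 20.3 and 7.89 ± 1.44 TPM at 3 months (-5.21, adjusted p 1.38e-13), and Ost4, of the oligosaccharyl transferase, 1317 ± 98.02 and 1519 ± 80.1 TPM against 1079.7 ± 22.2 and 89.8 ± 5.35 TPM (-3.78, adjusted p 1.02e-13). Jun averaged 76.1 ± 4.44 TPM in MPP4 and 1381 ± 54.01 TPM in MPP3 at 3 months (4.05, adjusted p 1.38e-13) and Tmsb4x 5296 ± 77.7 and 1697 ± 36.4 TPM (-2.48, adjusted p 3.09e-14). For lineage genes, Flt3 averaged 179.7 ± 5.81 TPM in MPP4 and 87.6 ± 17.6 TPM in MPP3 at 3 months, Dntt 974 ± 9.24 and 172 ± 17.8 TPM, Elane 56.2 ± 8.73 and 3011 ± 304 TPM, Igll1 3.82 ± 1.85 and 261 ± 52.8 TPM, and H2-Ab1 203 ± 7.27 and 81.7 ± 4.56 TPM, each on the same side as at 24 months.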

How the data were processed

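Per the labels' protocols, total RNA of sorted cells was turned into cDNA and amplified with a low-input kit. The authors deposited TPM per gene in 5 tables of 2 groups each, with 0 columns left unmapped. The submitters' processing notes name HISAT2, StringTie, featureCounts and DESeq2 and the build mm10, and do not say which tool gave the TPM. Read depth, strand and the handling of reads shared by similar genes are not given in the labels, so no counting interval was made. Because TPM are not counts, no count test was run.

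TPM were fitted as log2(TPM + 1) in R 4.3.3 with limma 3.58.1 (trend and robust moderation), over the 6 libraries alone on 4 residual degrees of freedom, and tested with limma's moderated test. Genes needed 1 TPM in at least 3 libraries. Adjusted p used the Benjamini and Hochberg method over all genes tested, with calls at 0.05. Differences of differences were contrasts over 12 libraries each. With 3 libraries a group an exact permutation test cannot go below 0.1. The 32 lists and the named genes were chosen with earlier results of these data known, so counts over a list are descriptions. Named were Bcl11a, gate and sex-linked genes, up to 12 genes each way by size of difference among called genes without overlap and with at least 5 TPM, 6 each way by TPM difference, 4 of each list by smallest p and 6 for each of the differences of differences, without predicted genes and pseudogenes. Other list members in the text are examples chosen after their values were seen. Of 742 list members 11 were not listed, and a few single genes that count in the lists are not reported here. Alternatives were a pseudocount of 0.1, no filter, a minimum of 5 TPM, median-ratio rescaling, the replicate number as a block, no trend and no robust option, each library left out, all 30 libraries with table weights, the 12 libraries of 24 months, a spread for each table, a test against log2 1, and a correction for GC content and length. The fit was tested on simulated data.

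Gene positions came from GENCODE vM21 on GRCm38, which had an entry for 23376 symbols (95.7%), and promoters from RefSeq on GRCm38.p6, which had one for 8335 of the 11060 genes tested. A total of 12 motifs were searched on both strands, and only those named above are reported.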

Additional observations from a re-analysis of the deposited data

Results flagged for a closer look

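The difference of MPP4 minus MPP3 differed between T1 and T2 cells at 24 months for 2449 genes, by an interaction contrast in limma. The 6 genes of smallest adjusted p that the naming rule reached had differences of differences of -3.3 for Gstm1, -2.77 for Clec12a, -2.2 for Mgst1, -3.2 for Serpine2, 3.71 for Ly6d and 3.84 for Jchain (log2 units, T1 minus T2). The T2 libraries held Xist and also Y-linked transcripts, which were at or near 0 in the T1 libraries, and the part of this was not tested.

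The same difference in T1 cells differed between 24 and 3 months for 8633 genes. The 6 genes of smallest adjusted p named for it had differences of differences of 6.28 for Psap, 4.05 for Jun, -2.48 for Tmsb4x, -3.78 for Ost4, -4.11 for Ppp2ca and -5.21 for Nsmce4a (log2 units, 24 minus 3 months). Each of the 4 groups lay in a table of its own, and age, cell type and table cannot be told apart.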

How the results depend on the processing

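The count of 2734 called genes stayed within 1.5 times under each alternative but 2. It was 151 (29 higher, 122 lower) in the test against a minimum log2 difference of 1, and 1725 to 2572 when 1 library was left out, lowest without MPP3 replicate 3. The smaller count in the test against log2 1 is set by its construction. Leaving a library out does not fix a smaller count, and why the count varied with the library was not tested. Median-ratio rescaling gave 1338 genes higher and 1238 lower. The differences between T1 and T2 cells numbered 1603 to 2776 with 1 library left out, and 1603 without MPP3 T1 replicate 3. Those between 24 and 3 months numbered 8231 to 8406. Lists with more members lower than higher numbered 16, and 12 to 18 under the alternatives, 14 to 16 with 1 library left out. No called gene of the comparison was called in the opposite direction under any of the 17 alternatives.

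Among the values of 159 results for named genes under alternatives other than a library left out, 1565 of 1676 kept their direction and side of the threshold, 107 lost the call, 2 gained one and 2 changed sign. With a library left out, 951 of 987 kept both, 28 lost the call, 1 gained one and 7 changed sign. All changes of sign were in genes not called. With 1 library left out, log2 differences ranged from -0.116 to 0.0384 for Xist, -0.0778 to 0.0991 for Psap, -0.019 to 0.154 for Ly6e and -0.0147 to 0.185 for Eng. Xist was at 0.0384, 0.0268 and 0.0093 without MPP4 replicate 1, MPP3 replicate 2 and MPP3 replicate 3, and 0.0874 after removal of the GC and length trend. Psap was at 0.0281 and 0.0991 without MPP4 replicate 2 and MPP3 replicate 3. Ly6e was at -0.019 without MPP3 replicate 2 and -0.0441 after removal of the GC and length trend, and Eng at -0.0147 without MPP3 replicate 2. The cause was not tested.

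MPP4 and MPP3 libraries with the same replicate number had deviations that correlated at 0.171, 0.106 and 0.0133, so the numbers were not taken to pair them, and not every library correlated best with its own number. With the replicate block 3359 genes were called, 1975 higher and 1384 lower, and 2208 and 8602 for the differences of differences. Read depth is unknown, so what it limits cannot be stated.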

Other observations

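Among genes that were not called, 11 differed by at least 2-fold between the group means of log2(TPM + 1), and in the 3 below libraries of at least 1 group disagreed. Adnp had 2.99, 41.3 and 42.8 TPM in MPP4 libraries and 15.5, 0 and 0.0384 TPM in MPP3 libraries. The symbol Dpm1-adnp, which joins the names of Dpm1 and Adnp, had 42.04, 0 and 0 TPM in MPP4 libraries and 18.4, 35.1 and 73.6 TPM in MPP3 libraries, so that within each group the libraries high in one were low in the other. Amd1 stood at 17.9, 23.0 and 23.1 TPM in MPP4 libraries, against 18.3, 1.91 and 19.6 TPM in MPP3 libraries. These genes were chosen after their values were seen, and no explanation was tested.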
